A study of Mus musculus with 12 samples.

Results

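Histone H3.3, its lysine methylation enzymes and 2 further chromatin regulators carried m6A peaks listed as differing between young and senescent mouse embryonic fibroblasts (MEFs). The 7 genes described are H3f3a, Nsd2, Nsd3, Kdm5b, Kdm2a, Asxl1 and Crebbp. They were chosen by gene name among the genes of 2 deposited tables of differing peaks, so their listing, direction, fold and p-value are a description and carry no test. They hold 11 of 1043 listed peaks and make up 7 of 633 listed genes. The cells were young MEFs (passage 3, P3) and MEFs that had become senescent in serial culture (passage 9, P9), with no genetic change or drug named in the labels for either passage. Each passage was sampled by 3 libraries of RNA pulled down with an m6A antibody (MeRIP) and 3 input libraries, 12 in all. Nothing in the labels says whether the 3 libraries of a passage came from separate embryos or cultures. The tables hold 1 fold and 1 p-value for each pair of a peak and a transcript and no value per library, so no spread between replicates can be given, the depth is unknown, and the fibroblast label could not be checked against marker levels.

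Each fold is a linear ratio of the group named Treatment to the group named Control. P9 was taken to be Treatment and P3 to be Control on the grounds that the sizes of both tables match those in the paper for P9 against P3, which makes the direction likely but not stated. Every listed fold was at least 1.5 or at most 0.667, and every p-value was at most 0.0490, so the values below are those of peaks that had already passed a threshold. How the fold used the input libraries was not given in the sources used here. More methylation per transcript and more of the transcript therefore cannot be told apart, nor, in bulk RNA, can a change in all cells and a change in the share of some cells.

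N6-methyladenosine is written on mRNA by the METTL3-METTL14 complex, mostly near stop codons and in 3' UTRs, and its readers act on the decay and translation of the message. The genes described here encode a second, separate layer of marks, those on the histone tails of the nucleosome. H3.3 is the H3 variant that is laid down outside DNA replication and so builds up in cells that no longer divide. NSD enzymes methylate lysine 36 of H3 (H3K36) and KDM2A removes that mark, KDM5B removes methyl groups from lysine 4 (H3K4), CREBBP acetylates histone tails, and ASXL1 is a cofactor of the histone H2A deubiquitinase BAP1.

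Of the 7 genes, 4 had only peaks that were higher in P9 MEFs (H3f3a, Nsd2, Nsd3 and Kdm5b) and 3 had only peaks that were lower (Kdm2a, Asxl1 and Crebbp). Among all 633 listed genes, 79.3% had only higher and 19.3% only lower peaks, and by listed peaks 7 of the 11 were higher against 80.5% of all 1043. The members were picked with these directions known, so nothing is read from the counts. Folds of the higher peaks ran from 1.55 to 5.17, beside a median of 1.73 (interquartile range 1.58 to 2.04) over the 840 higher peaks of the series. Folds of the lower peaks ran from 0.476 to 0.646, beside a median of 0.598 (interquartile range 0.480 to 0.646) over the 203 lower peaks. By fold, the genes nearest the threshold were H3f3a (1.55) and Kdm2a (0.646). By deposited p-value the nearest was Nsd3 (0.0347 and 0.0457 on its listed transcripts). Peaks just outside the threshold are not listed.

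**Figure D1:**
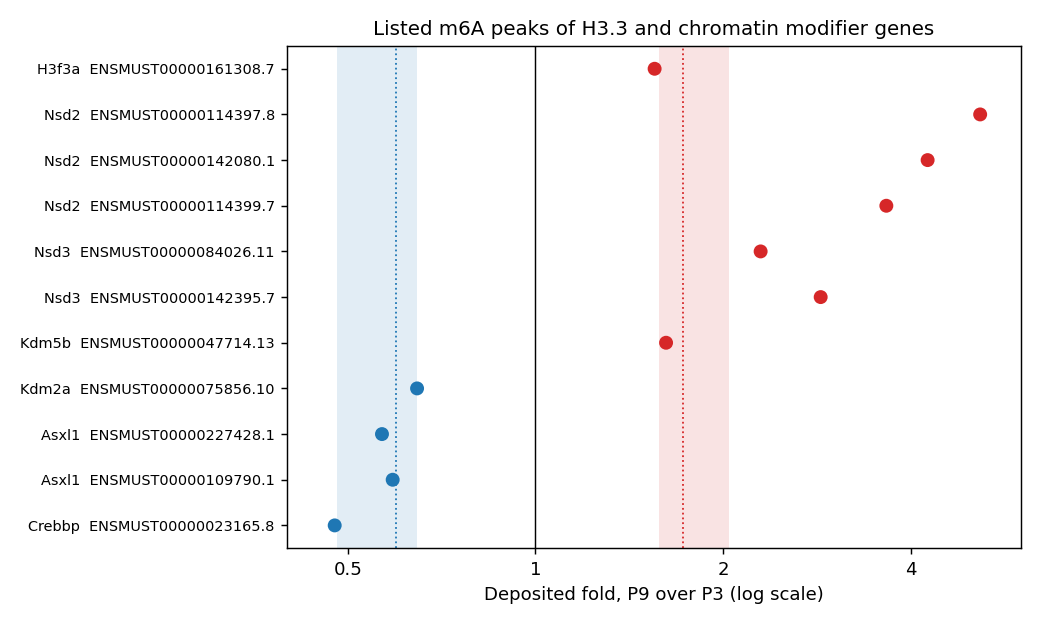
Deposited fold (P9 over P3, log scale) of each of the 11 listed peaks, 1 row for each gene and transcript, red for higher and blue for lower at P9. Shaded bands are the interquartile ranges and dotted lines the medians of all listed peaks of that direction. The Nsd2 and Nsd3 points lie right of the red band, H3f3a lies just left of it, and Crebbp lies just left of the blue band.

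H3f3a, 1 of the 2 genes that encode H3.3, had a higher 3' UTR peak on chromosome 1 from 180802566 to 180802775 (mm10, minus strand, 210 nt in 1 exon block), listed for transcript ENSMUST00000161308.7. Its fold was 1.55 with a p-value of 5.89e-10. This was the second smallest p-value among the 511 genes with a higher peak, while by fold H3f3a ranked 423. The peak reached to within 6 nt of the 3' end of H3f3a in RefSeq. A position this close to the end was common: of 244 higher sites that lay in the 3' UTR alone and within a RefSeq gene, 58 lay closer still, and the distances had quartiles of 6.75, 523.5 and 2126 nt. The other H3.3 gene, H3f3b, had no listed peak. The assignment of reads shared by H3f3a, H3f3b and their processed copies was not given in the sources used here, so the H3f3a value is uncertain in that respect.

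Nsd2, an H3K36 methyltransferase gene, held the largest fold of the group. Its single 3' UTR site on chromosome 5 was listed for 3 transcripts. On ENSMUST00000114397.8 the peak ran from 33871546 to 33871695, with a fold of 5.17 and a deposited p-value of 0.000977. On ENSMUST00000142080.1 it spanned 33871537 to 33871687, with a fold of 4.26 and a deposited p-value of 0.00100. On ENSMUST00000114399.7 it spanned 33871533 to 33871683, with a fold of 3.66 and a deposited p-value of 0.00219. The 3 intervals are 150 to 151 nt long and nearly coincide, yet the largest fold was 1.41 times the smallest. A ratio this large was reached at 5 of the 236 sites with more than 1 listed transcript, Nsd2 among them, and the median ratio was 1.02. Nsd2 stood at place 16 of 511 by its largest fold and at place 48 by its smallest p-value.

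The Nsd2 site was far from the end of the gene. RefSeq places Nsd2 on the plus strand from 33820676 to 33897966, and the site stopped 26271 nt short of that 3' end, about 66.0% of the way along the gene, where transcripts of 5738, 6323 and 7786 nt have their 3' UTR. Of the 244 higher 3' UTR sites, 240 lay closer to the 3' end of their gene. Because the site is 3' UTR on the listed Nsd2 transcripts, their coding sequence ends upstream of it. Whether these transcripts encode the whole enzyme, with its methyltransferase domain, was not checked.

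Nsd3, the paralogue of Nsd2 and also an H3K36 methyltransferase gene, had a higher 3' UTR site on chromosome 8 that was listed for 2 transcripts. On ENSMUST00000084026.11 it spanned 25717271 to 25717391, 121 nt, and its fold was 2.30 at a deposited p-value of 0.0347. On ENSMUST00000142395.7 it covered only the inner 61 nt, from 25717298 to 25717358, and its fold was 2.87 at a deposited p-value of 0.0457. The shorter interval thus had the larger fold and the larger p-value, and the ratio of the folds, 1.25, was reached by 10 of the 236 sites. Nsd3 ranked 48 of 511 by fold but 392 by p-value. From the site to the 3' end of Nsd3 it was 2276 nt.

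Kdm5b, which encodes an H3K4 demethylase, had a higher 3' UTR peak on chromosome 1 from 134632021 to 134632291 (271 nt), listed for ENSMUST00000047714.13. The fold was 1.62 with a p-value of 0.00437, and the gene ranked 350 of 511 by fold and 106 by p-value. Its peak was the longest of the 4 higher sites and lay 587 nt short of the 3' end of Kdm5b, near the median distance of the higher 3' UTR sites. As for H3f3a, the change was small for this list and the p-value was among its smaller ones.

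**Figure D2:**
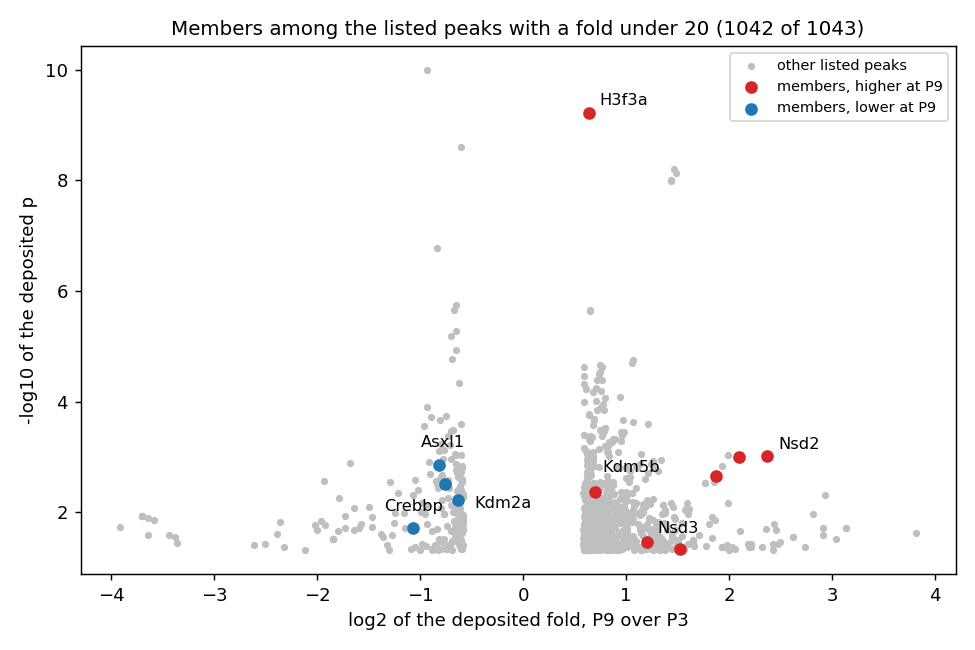
Log2 of the deposited fold (x axis) against -log10 of the deposited p-value (y axis) for 1042 of the 1043 listed peaks, with the members in red (higher at P9) and blue (lower at P9). 1 other listed peak, with a fold over 20, is not drawn. H3f3a stands near the top at a small fold, while Nsd2 and Nsd3 lie right of most of the red side at larger p-values, and the gap around 0 is the threshold of the deposited tables.

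Kdm2a, which encodes an H3K36 demethylase that binds CpG islands, had a lower coding peak on chromosome 19, listed for ENSMUST00000075856.10. The peak covered 241 nt of the message in 3 exon blocks, which in the direction of the transcript (minus strand) ran over 69 nt from 4362045 to 4361977, 47 nt from 4361584 to 4361538 and 125 nt from 4356926 to 4356802. Introns of 392 and 4611 nt separate the blocks. The fold was 0.646 with a p-value of 0.00617, and among the 131 genes with a lower peak Kdm2a ranked 103 by fold and 50 by p-value. Among the members this was the one peak within the coding sequence alone, and it lay between 44.4% and 50.8% of the way along the gene.

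Asxl1 had a lower site at its 5' end on chromosome 2, labelled both 5' UTR and coding on each of 2 transcripts, so that it spans the start codon. On ENSMUST00000227428.1 it ran from 153346099 to 153357114 in 3 blocks of 292, 83 and 45 nt, with a fold of 0.567 and a deposited p-value of 0.00141. On ENSMUST00000109790.1 it ran from 153346084 to 153357096 in 4 blocks of 307, 83, 3 and 27 nt, with a fold of 0.590 and a deposited p-value of 0.00309. Both intervals cover 420 nt of the message. The transcripts differ within the site by the block of 3 nt, from 153354650 to 153354652, and their folds differed by 1.04 times. The smaller p-value placed Asxl1 at 27 of 131 genes with a lower peak, and its fold at 55. In RefSeq the site began 254 to 269 nt into Asxl1.

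Crebbp, the gene of the acetyltransferase CBP, had the largest change of the 3 lower genes, a fold of 0.476 with a p-value of 0.0191. Its peak lay in the 5' UTR alone on chromosome 16 from 4213428 to 4213997 (minus strand, 570 nt in 1 block), listed for ENSMUST00000023165.8. It was the longest interval of the group, against a quartile range of 179.25 to 271 nt for the 26 lower peaks in the 5' UTR alone. Crebbp ranked 29 of 131 by fold and 88 by p-value. The peak began 40 nt upstream of where RefSeq starts Crebbp, so the listed Ensembl transcript starts at least that far upstream.

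The single RefSeq start window held for Crebbp (GRCm38.p6, the assembly also called mm10) runs from 4213355 to 4213654 and so lies inside the RefSeq gene, whose 5' end is at 4213957. It does not surround the 5' end from which the distances were counted. This window covers 227 of the 570 nt of the peak, from 4213428 to 4213654. These bases were 83.7% G and C. Of 32851 RefSeq start windows, each cut at the same positions within its window, only 0.329% were as rich (median 52.0%). Whether those windows lie inside their genes, as this one does, was not checked, so they may hold an unlike kind of sequence. The full m6A consensus, which has other forms, was not counted in the 227 nt of Crebbp. GGAC, a common core of that consensus, occurred 0 times in these 227 nt on either strand. It was present in 54.6% of the windows on the strand of the gene and in 56.1% on the opposite strand. The other 343 nt were not searched, and the absence of these letters from the window says nothing of whether the peak is methylated. No peak sequence was searched for the other 6 genes, because no genome sequence was used here.

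The members thus fell apart by place as well as by direction. All 7 higher listed peaks (4 sites) lay in the 3' UTR alone and in 1 exon block, while none of the 4 lower listed peaks (3 sites) touched the 3' UTR. Over the series, the 3' UTR alone held 52.4% of the higher peaks, 79.8% of them had 1 block, and 54 of the 203 lower ones reached into a 3' UTR. The place of the peaks was known when the genes were chosen, so the counts describe these 7 genes only. The listed transcript of H3f3a measured 2841 nt, below the median of 3561 nt over all higher listed peaks. Those of the other 6 genes measured from 5738 nt (Nsd2) to 10820 nt (Crebbp), above that median and the 3312 nt over all lower listed peaks. The peaks covered 0.604% (Nsd3) to 7.39% (H3f3a) of the transcript. No other RefSeq gene overlapped the interval of any of the 7 sites, and no other listed peak lay within these 7 genes.

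**Figure D3:**
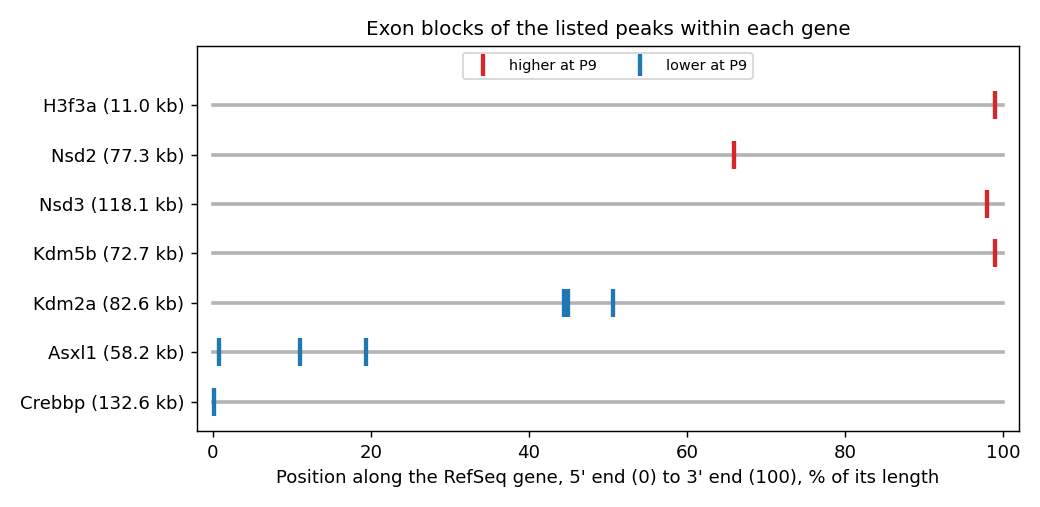
Position of the exon blocks of each listed site along its RefSeq gene (x axis, per cent of the gene's length from the 5' end), 1 row for each gene with its length in kb, for the transcript with the smallest p-value. Each tick is the middle of 1 exon block and its width is not to scale. Red ticks (higher at P9) lie at the 3' end except in Nsd2, and blue ticks (lower at P9) lie at or near the 5' end in Crebbp and Asxl1 and mid-gene in Kdm2a.

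The wider chromatin machinery was read from 14 lists with 234 genes in all, which are not complete. Of these 234 genes, 17 had a listed peak: 9 had only higher peaks, 7 only lower peaks and 1, the deacetylase gene Sirt1, had both. Among all 633 listed genes, 79.3% had only higher and 19.3% only lower peaks. The 17 include the 7 members, picked with their directions known. The lists too were chosen with earlier results known, so nothing is read from these counts. Genes for enzymes of H3K36 methylation were listed on both sides of the mark. Of 7 methyltransferase genes, Nsd2 and Nsd3 were listed, both higher. For Nsd2 this was on transcripts whose coding sequence ends before the last part of the gene. Of 8 demethylase genes, Kdm2a and Kdm4b were listed as lower and Kdm4a, the paralogue of Kdm4b, as higher. The enzymes of Kdm4a and Kdm4b both also act on H3K9. The Kdm4b peak lay in coding sequence with a fold of 0.611 and a deposited p-value of 0.0417. The Kdm4a site lay in the 3' UTR with a fold of 1.77 and a deposited p-value of 0.00832. Of 6 H3K4 demethylase genes Kdm5b alone was listed, and none of the 18 genes in the list of H3K4 methyltransferases and COMPASS subunits was.

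Among 16 genes of H3K9 methylation, the methyltransferase gene Suv39h2 had a higher 3' UTR site with a fold of 2.46 (deposited p-value of 0.0224). Cbx3, which encodes the heterochromatin protein HP1 gamma, had one with a fold of 1.51 (deposited p-value of 0.000407). Of 10 genes of the ASXL and BAP1 complex, Hcfc1, which encodes a BAP1 partner, was listed beside Asxl1, with a lower coding peak (fold 0.599, deposited p-value of 0.0427). Of 27 acetyltransferase genes and partners, Ep400, which encodes the ATPase of the TIP60 complex, was listed beside Crebbp, with a higher coding peak (fold 1.5, deposited p-value of 0.0170).

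Among 30 deacetylase and corepressor genes, Hdac8 had a higher 3' UTR peak with a fold of 1.68 (deposited p-value of 0.0200). Rcor1, which encodes the CoREST scaffold of the demethylase LSD1, had a lower peak across the start codon with a fold of 0.577 (deposited p-value of 0.00603). Sirt1 had a higher site, labelled both 3' UTR and coding, with a fold of 1.52 (deposited p-value of 0.0347). Its lower site lay in coding sequence, with a fold of 0.483 (deposited p-value of 0.0427). Of the 38 genes in the remodeller list Pbrm1, a subunit gene of the PBAF complex, had a listed peak, lower in coding sequence with a fold of 0.657 (deposited p-value of 0.00398). Over these 10 genes outside the group, 4 of 6 higher sites lay in the 3' UTR alone and 0 of 5 lower sites touched it. Over all listed peaks of the series, 52.4% of the higher ones lay in the 3' UTR alone. Of the 203 lower ones, 54 reached into a 3' UTR. With so few sites, nothing is read from these counts.

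No gene of 4 chromatin lists besides that of COMPASS was listed, namely those of 32 Polycomb and H3K27 demethylase genes, 12 histone H3 chaperone genes, 4 H3K79 and H4K20 methyltransferase genes and 14 genes of DNA methylation. Of 12 replacement and variant histone genes H3f3a alone was listed. A list of 20 genes of m6A itself held no listed gene, and it covers the METTL3 complex, FTO, ALKBH5, the YTH and IGF2BP readers, HNRNPA2B1 and HNRNPC. Genes that were measured and did not pass the threshold were not used here, so no share of a family can be set against its background and no enrichment was computed.

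The zero counts hold for the genes in each list alone, since other listed genes belong to the same families. The genes given next were chosen once their values had been seen, and they enter no count or plot of the lists. Scmh1, a Polycomb gene, had a lower peak with a fold of 0.262 and a deposited p-value of 0.00269. Prdm9, which encodes a methyltransferase of H3K4 and H3K36, had a higher peak with a fold of 2.39 and a deposited p-value of 0.0141. Ss18l1, a subunit gene of the BAF remodeller, had a higher peak with a fold of 3.56 and a deposited p-value of 0.0120. Fxr2, which encodes an FMR1-family RNA-binding protein described as an m6A reader, had a lower peak with a fold of 0.632 and a deposited p-value of 0.000871. Mbtd1 and Msl1, partners of histone acetyltransferases, and Tbl1xr1 and Arid4a, of corepressor complexes, were listed too and are likewise outside the lists. Mbtd1, Tbl1xr1 and Arid4a had only higher peaks and Msl1 only a lower one. The genes named in this way are examples, and further chromatin genes outside the lists have listed peaks.

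**Figure D4:**
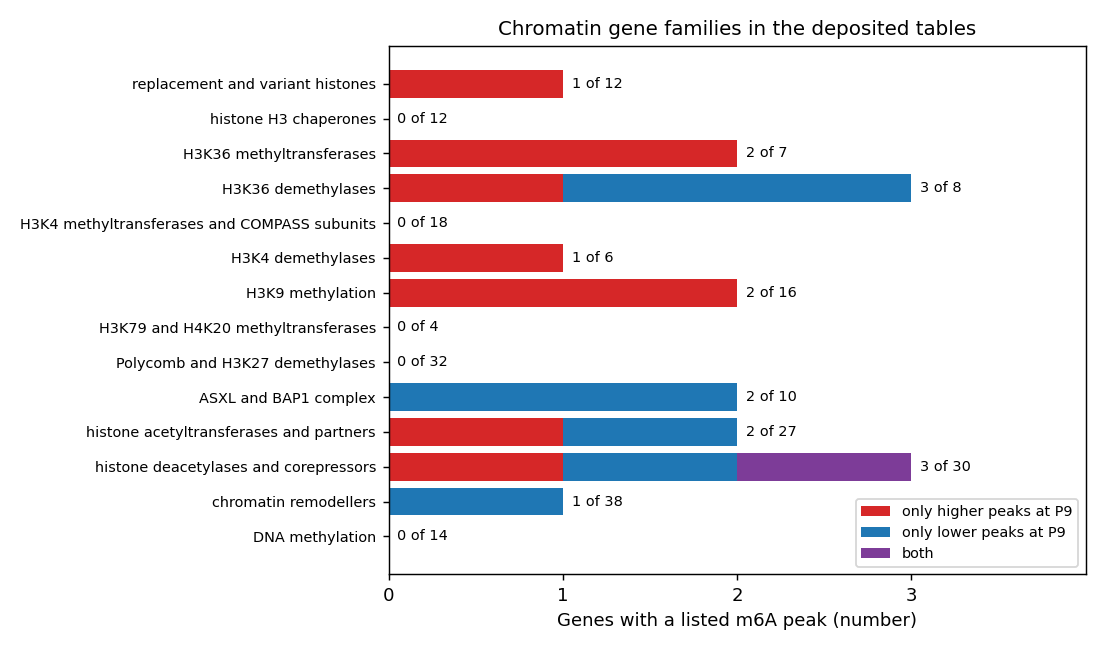
Number of genes with a listed m6A peak (x axis) in each of 14 chromatin gene lists (rows), in red for genes with only higher peaks at P9, blue for only lower peaks and purple for both. The text beside each bar gives the listed genes of all genes in that list, such as 2 of 7 for H3K36 methyltransferases and 3 of 8 for H3K36 demethylases. The lists are not complete, and the bars are not set against a background.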

How the data were processed

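MeRIP-seq was performed on P3 and P9 MEFs, and per the labels the genome build is mm10. The fold (ratio) values and the p-values are, as deposited, the authors' own comparison of the passages, and they were copied as a description without a test. The read aligner, the peak caller, the test behind the p-value, its adjustment and the use of the input were not given in the sources used here. As deposited, 1043 of 1043 p-values lie on steps of 0.01 in log10, so they carry that rounding. Starts were counted from 0 as deposited and are given from 1. Listed peaks of 1 direction and strand whose exon blocks overlapped or touched were merged into sites, and this step was tested on simulated peaks. A peak with several labels was counted as coding first, then 3' UTR, then 5' UTR, and "alone" means that it had 1 label. For a site listed for several transcripts, ranks used the largest change and smallest p-value of the gene, and other single values came from the transcript with the smallest p-value. RefSeq on GRCm38.p6 gave gene spans and start windows, and 1016 listed peaks matched it by symbol and chromosome. All 7 members and every listed gene of the 15 lists (14 of chromatin genes and 1 of m6A factors) were named. The members and lists were chosen with earlier results of these data known. Python 3.11.15, numpy 2.4.6, pandas 2.3.3 and matplotlib 3.10.9 were used.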

Additional observations from a re-analysis of the deposited data

How the results depend on the processing

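Each member was listed in 1 direction, so no choice of transcript could turn it. Counted as merged sites or as genes, the higher members numbered 4 in place of 7 listed peaks, 4 sites in the 3' UTR included, since several transcripts share a site. With every label counted, 3 lower listed peaks in place of 1 touched the 5' UTR. Taking the transcript with the largest p-value gave folds of 3.66 (Nsd2), 2.87 (Nsd3) and 0.590 (Asxl1), and the median over transcripts gave 4.26, 2.58 and 0.579. At a change of at least 2-fold, 5 of the 7 higher listed peaks (without H3f3a and Kdm5b) and 1 lower one (Crebbp) were left. At a p-value of at most 0.01, 5 higher (without Nsd3) and 3 lower (without Crebbp) were left. Over all chromatin lists, 5 genes had only higher peaks, 4 only lower peaks and 0 both at a p-value of at most 0.01, and 3, 2 and 0 at a change of at least 2-fold, where Sirt1 counts as only lower. These counts fall because fewer peaks enter. No paired analysis was possible because the tables hold no value per library, which also leaves the depth behind each fold unknown.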
